A study of Mus musculus with 20 samples.

Results

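Transcripts of 4 genes that mark the cells of the renal collecting duct were followed in the kidney cortex of mice with acute kidney injury. The genes were chosen by symbol, as 4 of the 6025 genes in the deposited table: Aqp3 and Hsd11b2 for the principal cell, Slc4a1 for the type A intercalated cell and Slc26a4 for the type B intercalated cell. The libraries came from wild-type C57BL/6 mice aged 8 weeks, 1 mouse per library as far as the labels show, and the series text calls them biological replicates. The control group (n = 8) carries the treatment label mock, while the series text speaks of mock and vehicle animals, and the labels do not separate the kinds. The injured groups were ischemia-reperfusion injury (IRI, blood flow to the kidney stopped and restored) at 24 h (n = 4), rhabdomyolysis (breakdown of skeletal muscle that loads the kidney with myoglobin) at 24 h (n = 4) and the DNA-binding drug cisplatin at 72 h (n = 4). The labels give no dose. Cisplatin was sampled later than IRI and rhabdomyolysis, so the effect of the drug and that of the later time cannot be told apart. Library identifiers formed 2 ranges, so IRI was set against controls 1 to 4, and rhabdomyolysis and cisplatin against controls 5 to 8, which share their range.

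The collecting duct sets the final volume and acidity of urine. In the principal cell, water that enters through apical aquaporin 2 leaves through basolateral aquaporins, among them AQP3. HSD11B2, 11-beta-hydroxysteroid dehydrogenase type 2, inactivates glucocorticoids in the same cell, so that the mineralocorticoid receptor can respond to aldosterone. Intercalated cells move acid and base. The type A cell secretes acid with an apical proton pump and returns bicarbonate to the blood through the basolateral anion exchanger AE1, the product of Slc4a1. The type B cell secretes bicarbonate in exchange for chloride through apical pendrin, the product of Slc26a4. Red cells use a longer form of AE1 as their main anion exchanger, transcribed from the same gene, and a value per gene does not separate the forms.

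Each gene occupies a single locus on GRCm38 in the GENCODE M21 annotation. Aqp3 lies on chromosome 4 from 41092722 to 41098183 on the minus strand, with 6 exons in its coding transcript. Hsd11b2 lies on chromosome 8 from 105518755 to 105523988 on the plus strand, with 5 exons. Slc4a1 lies on chromosome 11 from 102348824 to 102366203 on the minus strand, with 20 exons, and Slc26a4 on chromosome 12 from 31519827 to 31559969 on the minus strand, with 21 exons. Divided by the length of the annotated coding transcript, the control level was 96.3 ± 6.52 CPM per kb for Hsd11b2, 88.7 ± 8.54 for Aqp3, 33.0 ± 4.65 for Slc26a4 and 12.3 ± 6.59 for Slc4a1 (SD, n = 8). Without control 4, whose Slc4a1 value stood apart, the last was 10.02 ± 1.06 CPM per kb (SD, n = 7). CPM is the read count scaled to the effective library size that the authors used.

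RefSeq promoter sequences (GRCm38.p6) were at hand for 2 of the 4 genes, the aquaporin of the principal cell and the pendrin gene of the type B cell. They are shown because they were the sequences at hand. Each holds the 250 bases before the start site, 5′ to 3′ on the gene's strand, with motif matches in capitals. The Aqp3 sequence is chr4:41098184-41098433 (minus strand) and the Slc26a4 sequence is chr12:31559985-31560234 (minus strand).
Aqp3: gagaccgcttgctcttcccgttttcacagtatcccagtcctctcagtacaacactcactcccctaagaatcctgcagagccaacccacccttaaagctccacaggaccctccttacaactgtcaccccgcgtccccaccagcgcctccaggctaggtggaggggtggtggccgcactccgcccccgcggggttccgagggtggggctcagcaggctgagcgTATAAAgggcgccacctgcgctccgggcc
Slc26a4: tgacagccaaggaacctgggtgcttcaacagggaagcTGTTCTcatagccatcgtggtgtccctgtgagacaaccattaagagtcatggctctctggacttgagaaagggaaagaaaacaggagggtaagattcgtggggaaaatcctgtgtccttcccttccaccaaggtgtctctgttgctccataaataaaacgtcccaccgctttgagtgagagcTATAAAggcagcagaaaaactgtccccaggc
The letters TATAAA stand 29 to 24 bases before the start in Aqp3 and 31 to 26 bases before it in Slc26a4. That motif was searched after the sequences had been read, and 12.4% of 32851 promoters of the same length hold it on either strand. AGAACA, the core of a corticosteroid receptor site, was found in Slc26a4 only, on the other strand as TGTTCT, 213 to 208 bases before the start, and 16.1% of promoters hold it. The GATA factor letters AGATAA (9.99% of promoters) and the forkhead factor letters GTAAACA (3.17%) were searched on both strands and were not among these letters. The Aqp3 sequence had 64.0% G and C with 14 CpG pairs, and the Slc26a4 sequence 49.6% with 4. A match is a description of the letters and was not tested against binding.

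All 6025 genes of the table differed at least 1.5-fold from the mean of the 8 controls in at least 1 injury, so each of the 4 genes had to differ somewhere, and genes outside that selection were not analysed here. Reads in the table ranged from 3.48 to 5.40 M (mega) per library. Of the genes, 5672 had a mean of at least 1 CPM and were tested with limma on log2(CPM + 1). All 4 collecting duct genes passed this filter. Beside these genes, markers of other nephron segments also moved. The proximal tubule list fell for 11, 12 and 12 of 12 genes in IRI, rhabdomyolysis and cisplatin, beside 40.1%, 46.5% and 44.0% of all genes tested, although quantile normalization turned Lrp2 (0.043) and Hnf4a (0.33) above 0 in IRI. The thick ascending limb list fell for 8 of 8 genes in each. The distal convoluted and connecting tubule list fell for 9, 8 and 9 of 9, although quantile normalization turned Slc12a3 (0.038) and S100g (0.056) above 0 in rhabdomyolysis. Over all alternatives and left-out libraries, the counts that moved ranged from 8 to 12 for the proximal tubule in IRI, from 7 to 8 for the thick ascending limb in rhabdomyolysis, and from 7 to 9, 6 to 8 and 8 to 9 for the distal convoluted and connecting tubule. One control stood apart in a collecting duct gene: control 4, in the range used for IRI, had 129 CPM of Slc4a1, 2.49 times the highest other control. Control levels of Slc4a1 and its changes in IRI are given with and without it, while correlations include it.

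The principal cell gene Aqp3 was lower in each injury. The 8 controls ranged from 139 to 183 CPM with a median of 153.7. The IRI mice had 86.4, 71.5, 69.6 and 112 CPM, the rhabdomyolysis mice 73.3, 61.9, 48.7 and 99.6 CPM, and the cisplatin mice 73.3, 79.7, 84.9 and 93.6 CPM. Every injured mouse lay below every control. Against all 8 controls, 33.8%, 42.7% and 38.0% of the genes tested were lower without overlap in IRI, rhabdomyolysis and cisplatin. The group mean fell 1.74-fold in IRI, from 147.9 ± 10.2 to 85.0 ± 19.8 CPM, and 2.33-fold in rhabdomyolysis, from 165.4 ± 14.9 to 70.9 ± 21.6 CPM (SD, n = 4 each). With cisplatin it fell 1.99-fold, to 82.9 ± 8.59 CPM (SD, n = 4). On the log2(CPM + 1) scale the changes were −0.82 (SE 0.17, limma adjusted p = 1.54e-04), −1.25 (SE 0.17, limma adjusted p = 3.10e-07) and −0.99 (SE 0.17, limma adjusted p = 1.12e-05). In the same comparisons, 40.1%, 46.5% and 44.0% of all genes tested were called lower.

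By group means, Hsd11b2, the glucocorticoid-inactivating enzyme, fell least in IRI and most in rhabdomyolysis. The IRI and cisplatin effects were not called apart (limma adjusted p = 0.118). The call between rhabdomyolysis and cisplatin was lost with 75th percentile scaling, quantile normalization or DESeq2. Controls ranged from 165 to 196 CPM with a median of 174.9. The IRI mice had 138, 125, 146 and 91.3 CPM, the rhabdomyolysis mice 88.7, 67.9, 64.8 and 78.6 CPM, and the cisplatin mice 113, 78.1, 94.96 and 118 CPM. All 12 injured mice lay below the controls, and mouse 4 was the lowest of the IRI group. Against their own controls the means were 1.36-fold lower in IRI (125.0 ± 24.0 against 170.1 ± 8.01 CPM), 2.46-fold lower in rhabdomyolysis (74.98 ± 10.9 against 184.4 ± 11.6 CPM) and 1.83-fold lower in cisplatin (101.0 ± 18.2 CPM; SD, n = 4 each). The log2 changes were −0.46 (SE 0.14, limma adjusted p = 0.00516), −1.30 (SE 0.14, limma adjusted p = 1.46e-08) and −0.88 (SE 0.14, limma adjusted p = 6.05e-06). Quantile normalization ended the call in IRI, with a log2 change of −0.16 and a limma adjusted p of 0.317.

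Slc4a1, the anion exchanger of the type A intercalated cell, showed the deepest fall of the 4 genes in every injury. The controls other than control 4 ranged from 39.3 to 52.0 CPM, and the median was 46.8 CPM over all 8 and 46.3 CPM without control 4. The IRI mice had 17.2, 12.3, 20.4 and 11.3 CPM, the cisplatin mice 10.3, 6.56, 7.48 and 8.91 CPM, and the rhabdomyolysis mice 4.44, 4.24, 2.76 and 1.70 CPM. Every injured value lay below every control value, as for 33.8%, 42.7% and 38.0% of all genes tested in IRI, rhabdomyolysis and cisplatin. Every rhabdomyolysis value lay below every cisplatin value, as for 29.0% of all genes tested. IRI lies in the other identifier range, so its values were not set directly against those of the other injuries. The lowest value rested on 15 reads. Against its own controls the mean was 4.29-fold lower in IRI (15.3 ± 4.28 against 65.6 ± 42.7 CPM), or 2.90-fold lower without control 4 (controls at 44.4 ± 5.33 CPM; SD, n = 3). It was 14.1-fold lower in rhabdomyolysis (3.28 ± 1.29 against 46.4 ± 5.00 CPM) and 5.58-fold lower in cisplatin (8.31 ± 1.63 CPM; SD, n = 4 each). The log2 changes were −1.89 (SE 0.28, limma adjusted p = 4.14e-06), or −1.51 without control 4, then −3.52 (SE 0.28, limma adjusted p = 1.20e-10) and −2.36 (SE 0.28, limma adjusted p = 1.14e-07). Ordered from the largest fall among the 5672 genes tested, Slc4a1 stood at 213 in IRI (419 of 5681 without control 4), 73 in rhabdomyolysis and 175 in cisplatin.

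Slc26a4, the pendrin gene of the type B cell, was lower in each injury, by 1.55-fold to 1.70-fold. Controls ranged from 81.0 to 119 CPM with a median of 101.5. The IRI mice had 57.4, 58.1, 59.6 and 69.4 CPM, the rhabdomyolysis mice 69.4, 66.7, 40.5 and 79.9 CPM, and the cisplatin mice 55.3, 56.8, 75.5 and 55.7 CPM. No injured value reached a control value, although the highest rhabdomyolysis value, 79.93 CPM, was close to the lowest control value, 81.03 CPM. The means were 1.70-fold lower in IRI (61.1 ± 5.61 against 103.7 ± 16.8 CPM), 1.55-fold lower in rhabdomyolysis (64.1 ± 16.8 against 99.2 ± 13.4 CPM) and 1.63-fold lower in cisplatin (60.8 ± 9.81 CPM; SD, n = 4 each). The log2 changes were −0.74 (SE 0.17, limma adjusted p = 4.29e-04), −0.65 (SE 0.17, limma adjusted p = 9.34e-04) and −0.70 (SE 0.17, limma adjusted p = 5.71e-04).

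**Figure D1:**
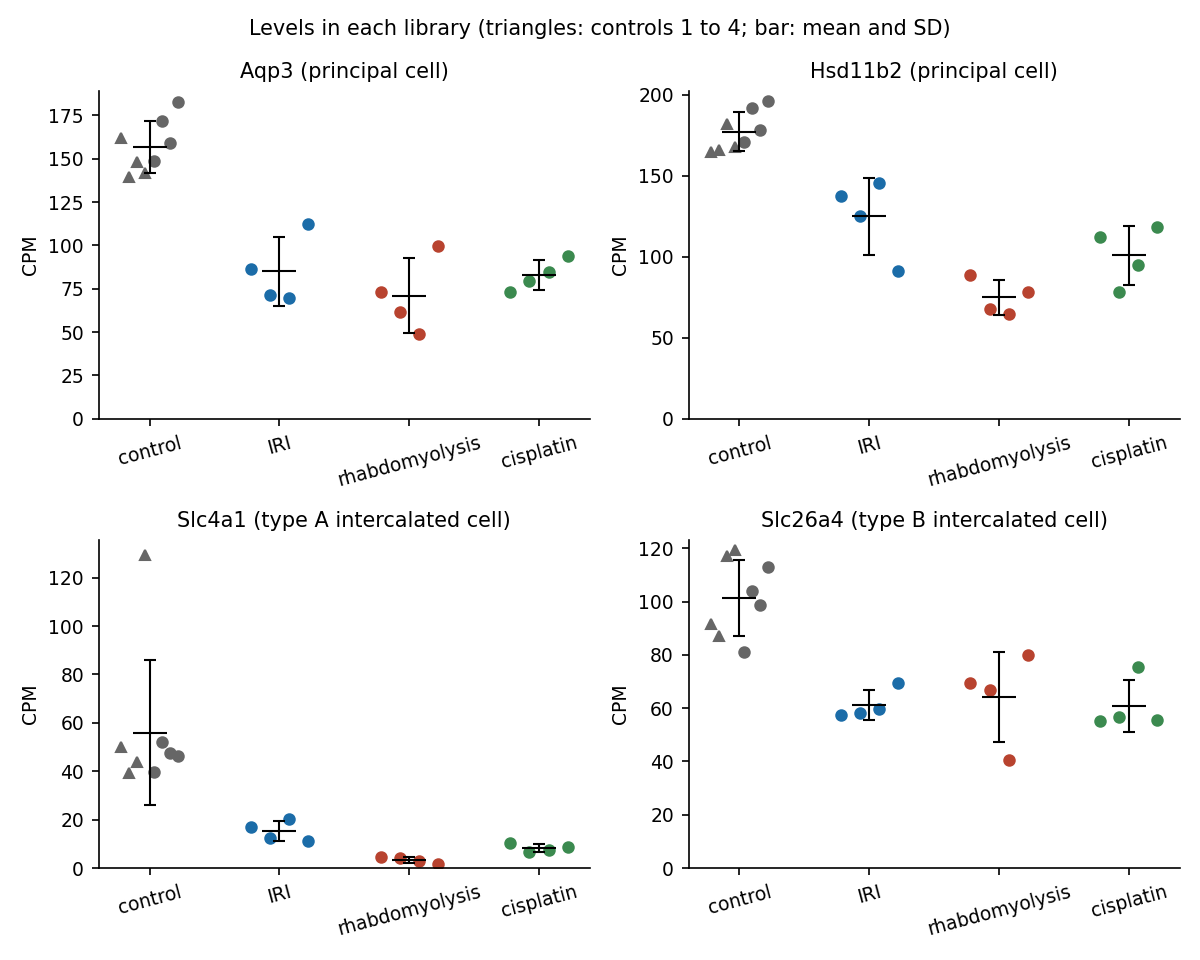
CPM of Aqp3, Hsd11b2, Slc4a1 and Slc26a4 in every library, by group, with the group mean and SD; 1 point is 1 mouse, and triangles are controls 1 to 4. In each panel the injured mice sit below all controls, and control 4 stands above the other controls for Slc4a1 at 129 CPM.

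Across the 12 comparisons of a gene with the controls of its range, the injured mice were lower without overlap in 12, and the exact two-sided permutation p was 0.0286 in each, the smallest that 4 against 4 libraries allow. Over all genes tested, 35.4%, 44.4% and 41.4% were lower without overlap in IRI, rhabdomyolysis and cisplatin, and 36.9% were called lower in all 3 injuries, as these 4 genes were. The median log2 change of all genes tested was 0.077 in IRI, 0.31 in rhabdomyolysis and 0.30 in cisplatin. Other scalings moved that median by over 0.1 in some injuries: by 0.11 in IRI and 0.14 in rhabdomyolysis with 75th percentile scaling, by −0.17 in rhabdomyolysis and −0.27 in cisplatin with quantile normalization, and in rhabdomyolysis by 0.16 with edgeR and 0.24 with DESeq2. Relative to the median, the log2 change of Hsd11b2 in IRI was −0.54 as fitted, −0.53 with 75th percentile scaling and −0.18 with quantile normalization, and that of Slc26a4 in rhabdomyolysis was −0.96, −0.91 and −0.58. All 12 changes stayed below 0 under these scalings and with edgeR and DESeq2. In whole cortex, fewer cells of a type and less RNA per cell cannot be told apart.

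**Figure D2:**
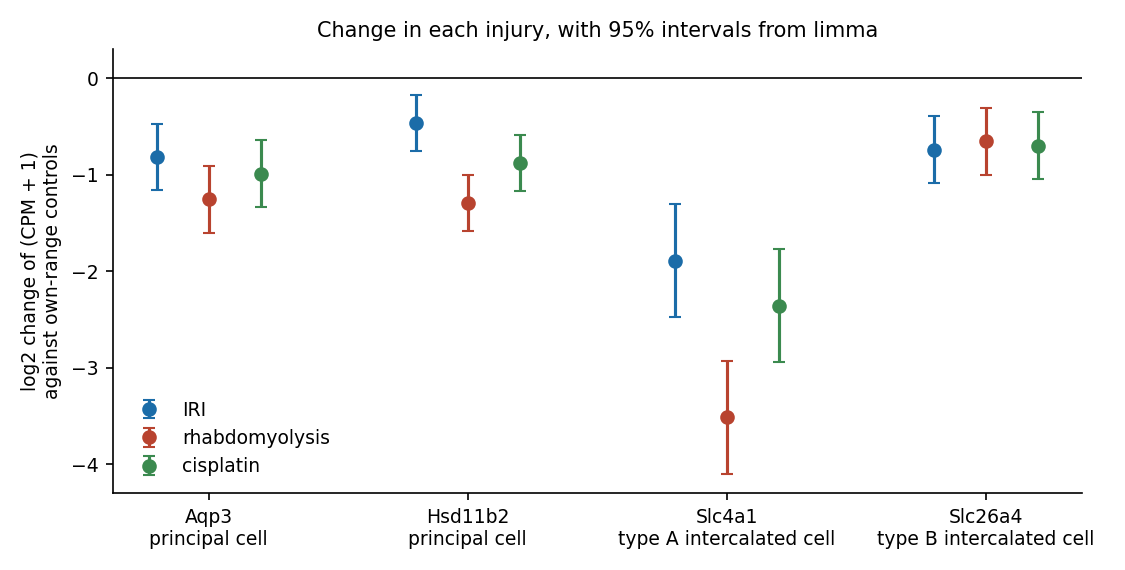
Log2 change of (CPM + 1) against the controls of the same identifier range for the 4 genes in IRI, rhabdomyolysis and cisplatin; points are limma estimates and bars their 95% confidence intervals. All 12 estimates lie below 0, from −0.46 for Hsd11b2 in IRI to −3.52 for Slc4a1 in rhabdomyolysis.

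The injuries differed for Hsd11b2 and Slc4a1. Rhabdomyolysis and cisplatin lie in the same identifier range and were compared directly, a comparison in which 54.1% of all genes tested were called (32.7% lower and 21.4% higher in rhabdomyolysis). Slc4a1 was 2.53-fold lower in rhabdomyolysis than in cisplatin, with no overlap, as in 29.0% of all genes tested (log2 difference −1.16, SE 0.28, limma adjusted p = 0.00160). Hsd11b2 was 1.35-fold lower (log2 difference −0.42, SE 0.14, limma adjusted p = 0.0161), with overlapping values and an exact permutation p of 0.0857. The Hsd11b2 call was lost with 75th percentile scaling (limma adjusted p = 0.0504), with quantile normalization (0.0898), with DESeq2 (0.0787) and without rhabdomyolysis mouse 3 (0.0580), cisplatin mouse 1 (0.0540) or cisplatin mouse 4 (0.0668). For Aqp3 the log2 difference was −0.27 (95% interval −0.61 to 0.080, limma adjusted p = 0.184), and it became a call without rhabdomyolysis mouse 4, the highest of its group (−0.44, limma adjusted p = 0.0188). For Slc26a4 it was 0.045 (95% interval −0.30 to 0.39, limma adjusted p = 0.838). Of the genes called in this comparison, 39.6% were higher in rhabdomyolysis, against 51.7% with quantile normalization and 50.1% with DESeq2.

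IRI, whose controls are the other 4 mice, was compared through the difference between effects. The IRI effect was smaller than the rhabdomyolysis effect for Hsd11b2 by 0.83 on the log2 scale (SE 0.20, limma adjusted p = 0.00157) and for Slc4a1 by 1.63 (SE 0.40, limma adjusted p = 0.00202), or 2.01 without control 4, while 52.0% of all genes tested were called in that comparison. The difference was 0.44 for Aqp3 (95% interval −0.050 to 0.93, limma adjusted p = 0.122), again a call without rhabdomyolysis mouse 4 (0.62, limma adjusted p = 0.0172), and −0.089 for Slc26a4 (95% interval −0.58 to 0.40, limma adjusted p = 0.770). Between IRI and cisplatin, where 30.3% of all genes tested were called, 0 of the 4 genes were called with limma. The differences were 0.17 for Aqp3 (95% interval −0.32 to 0.66), 0.42 for Hsd11b2 (0.0027 to 0.83), 0.47 for Slc4a1 (−0.36 to 1.30) and −0.044 for Slc26a4 (−0.54 to 0.45). By edgeR and by DESeq2 also 0 were called, and at an unadjusted p under 0.05 by limma 1 passed, Hsd11b2. Without IRI mouse 4 its difference was a call at 0.56 (limma adjusted p = 0.0239). Without control 4 the Slc4a1 difference was a call at 0.85 (limma adjusted p = 0.0383). For Aqp3 and Slc26a4, no order of the 3 injuries held beyond the errors.

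Ratios of pairs of the 4 genes within a library, which do not depend on its scaling, showed how the genes fell relative to each other. They were added after the values had been seen, and each rests on 1 exact permutation test of 4 against 4 libraries, with 24 tests in all. The ratio of Slc4a1 to Slc26a4, type A over type B, was 2.31-fold lower in IRI, 9.51-fold lower in rhabdomyolysis and 3.45-fold lower in cisplatin than in the controls of the range, without overlap in each. Without control 4 the IRI ratio was 1.86-fold lower, also without overlap. It was 2.76-fold lower in rhabdomyolysis than in cisplatin, also without overlap. In rhabdomyolysis the 2 principal cell genes also fell more than Slc26a4: the ratio of Aqp3 to Slc26a4 was 1.52-fold lower and that of Hsd11b2 to Slc26a4 1.56-fold lower, both without overlap. The ratio of Aqp3 to Hsd11b2 overlapped between groups in all 4 comparisons. The smallest exact permutation p was 0.0286, which became 0.0527 after Benjamini-Hochberg adjustment over the 24 tests, so 13 passed the threshold before adjustment and 0 after it.

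**Figure D3:**
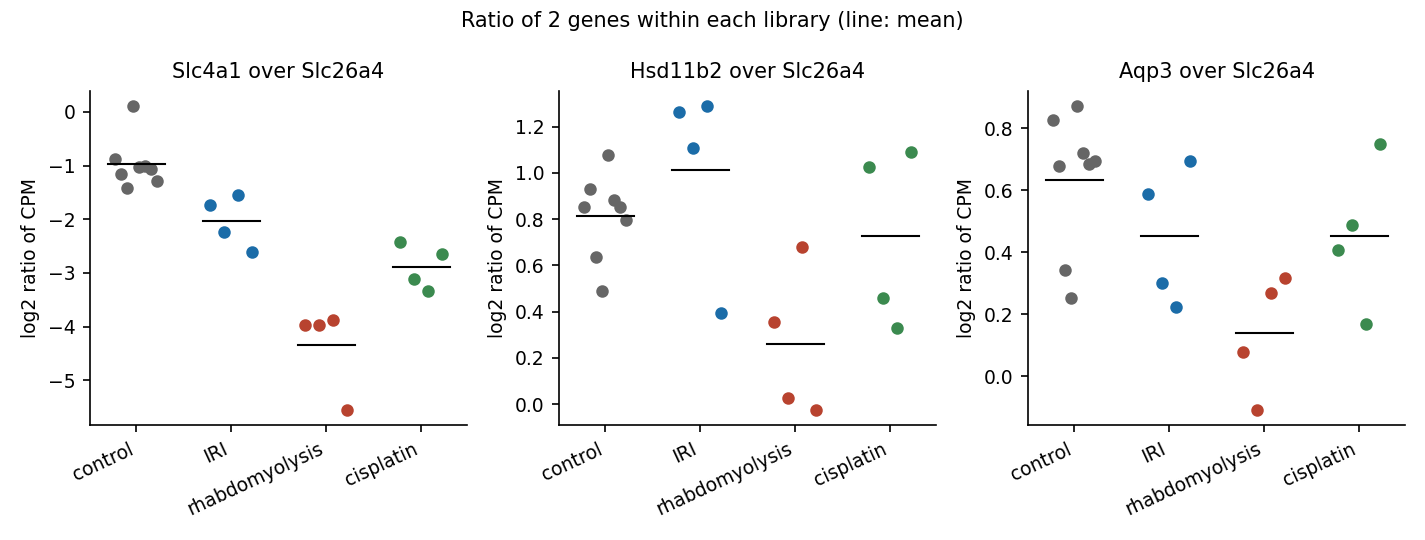
Log2 ratio of Slc4a1, Hsd11b2 and Aqp3 to Slc26a4 within each library, by group; 1 point is 1 mouse and lines are group means. The ratio of Slc4a1 to Slc26a4 is lowest in rhabdomyolysis, where mouse 4 reaches −5.55, and control 4 is the highest control at 0.12.

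Over the 20 libraries the 4 genes followed one another in level, with Pearson r from 0.701 (Hsd11b2 and Slc26a4) to 0.925 (Hsd11b2 and Slc4a1). These are descriptions, since the libraries share the group differences and the scaling. For the deviations from the group means, r was 0.664 for Aqp3 and Slc26a4, 0.350 for Hsd11b2 and Slc4a1, 0.137 for Hsd11b2 and Slc26a4, 0.128 for Slc4a1 and Slc26a4, 0.000516 for Aqp3 and Hsd11b2 and −0.284 for Aqp3 and Slc4a1. Mouse 4 of the rhabdomyolysis group was the highest of its group for Aqp3 and Slc26a4 and the lowest for Slc4a1, and mouse 3 of that group was the lowest for Aqp3, Hsd11b2 and Slc26a4. The genes most like each one over the 20 libraries were Tbcel, Selenbp2 and Mturn for Aqp3 (r 0.945 to 0.948), Rfng, Rhbg and Slc39a5 for Hsd11b2 (0.963 to 0.965), Cyb5b and Rasl2-9 for Slc4a1 (0.970 and 0.966) and Acss1, Tmem117 and Pde1a for Slc26a4 (0.899 to 0.908). Rhbg, an ammonia transporter of the collecting duct, belongs to the intercalated list below. For deviations from the group means the most alike were Klf9, Ache and Scg5 for Aqp3 (0.8002 to 0.808), D630023F18Rik, Cd8a and Cpne4 for Hsd11b2 (0.816 to 0.909), Pkp4, Ccdc157 and Hspa12a for Slc4a1 (0.783 to 0.804) and Klk1b5, Dock8 and Tmem117 for Slc26a4 (0.761 to 0.841).

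Other genes came from lists of the same cells written out from general knowledge. The placing of genes by cell type in these lists was not tested. Of 25 principal cell genes, 9 were in the table, Aqp3 and Hsd11b2 among them, and aquaporin 2 was not analysed here. In each injury 5 of the 9 fell: Aqp3, Hsd11b2, the mineralocorticoid receptor Nr3c2, and the potassium channel genes Kcnj1 and Kcnj16. Over all genes tested, 40.1%, 46.5% and 44.0% were called lower in IRI, rhabdomyolysis and cisplatin, the background for this and the next lists. Kcnj1 and Kcnj16 are also expressed by other segments of the distal nephron. The list's median log2 change was −0.43, −0.61 and −0.78 in IRI, rhabdomyolysis and cisplatin, against 0.077, 0.31 and 0.30 over all genes tested. Nr3c2 averaged 16.8 ± 2.93 CPM in controls (SD, n = 8) and 12.8 ± 2.096, 10.2 ± 2.54 and 8.78 ± 0.703 CPM in the injuries (SD, n = 4 each). Its IRI change of −0.43 (limma adjusted p = 0.0257) lost its call with 75th percentile scaling and without control 4, IRI mouse 1 or IRI mouse 3 (limma adjusted p up to 0.122). Kcnj16 changed by −0.70, −1.38 and −1.03, and its IRI call was lost with quantile normalization (−0.044).

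Other genes of the principal cell list rose, 3 of 9 in IRI and 4 of 9 in rhabdomyolysis and cisplatin. These counts were not above the background of 40.6%, 48.8% and 47.8% of all genes tested called higher. In whole cortex, the cells in which these genes rose cannot be told. The aldosterone-induced kinase gene Sgk1, also induced by glucocorticoids, went from 58.6 ± 10.7 CPM in controls (SD, n = 8) to 224.0 ± 68.3 CPM with rhabdomyolysis and 183.7 ± 9.44 CPM after cisplatin (SD, n = 4 each), log2 changes of 1.97 and 1.74. In IRI its level was 99.8 ± 52.4 CPM (log2 0.57, limma adjusted p = 0.0348), a call that was lost without IRI mouse 4 (0.26, limma adjusted p = 0.23) and without any 1 of controls 1 to 4 (limma adjusted p up to 0.0604). The transcription factor gene Elf5 rose by 0.77, 1.12 and 1.14 and the sialyltransferase gene St6gal1 by 0.74, 1.04 and 0.99. The clock gene Per1, a target of both corticosteroid receptors, rose in rhabdomyolysis (0.67) and cisplatin (0.93), and its IRI value was 0.078 (limma adjusted p = 0.805). The Per1 call in rhabdomyolysis was lost without control 6 or 7, or without rhabdomyolysis mouse 1 or 4 (limma adjusted p up to 0.143).

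Of 15 genes listed as shared by both intercalated types, 8 were in the table and all 8 fell in each injury. The median log2 changes were −0.99, −1.56 and −0.997. As an exception, quantile normalization turned the proton pump subunit gene Atp6v0a4 to 0.17 in IRI and 0.025 in cisplatin. Rhcg, an ammonia transporter, averaged 94.4 ± 9.56 CPM in controls (SD, n = 8), and 36.4 ± 2.54, 19.8 ± 1.61 and 28.5 ± 9.15 CPM after the 3 injuries in the same order (SD, n = 4 each). The chloride channel subunit gene Bsnd, also a gene of the thick ascending limb, went from 77.6 ± 7.17 to 28.8 ± 4.29, 16.9 ± 2.12 and 19.7 ± 4.41 CPM. The proton pump subunit gene Atp6v1b1 changed by −0.95, −1.76 and −0.94, the carbonic anhydrase gene Car12 by −0.74, −1.97 and −1.32, and Rhbg by −0.73, −1.36 and −0.82. The Atp6v0a4 call was also lost in IRI (−0.37) with 75th percentile scaling (−0.24), with all 8 controls (−0.27) and without control 3, IRI mouse 1 or IRI mouse 2 (limma adjusted p up to 0.105) and in cisplatin (−0.39) without control 7, cisplatin mouse 2 or cisplatin mouse 3 (limma adjusted p up to 0.0882). Quantile normalization ended the call of Car12 in IRI (−0.29). In rhabdomyolysis, 5 of the 8 were lower than in cisplatin, where 32.7% of all genes tested were called lower, and 3 were not called, Atp6v1c2 and Bsnd among them.

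Of 7 genes listed as type A, 2 were in the table and both fell in each injury. Beside Slc4a1 this was Oxgr1, the 2-oxoglutarate receptor gene, from 55.5 ± 15.1 CPM in controls (SD, n = 8) to 27.9 ± 3.12, 21.8 ± 6.37 and 23.5 ± 3.87 CPM (SD, n = 4 each). Among type B genes, 6 of 7 were in the table, and 4 fell in each injury: Slc26a4, the basolateral anion exchanger gene Slc4a9, the alkali-sensing receptor gene Insrr and the transcription factor gene Hmx2 (40.1%, 46.5% and 44.0% of all genes tested were called lower). Insrr went from 37.1 ± 8.07 CPM to 14.1 ± 0.836, 7.52 ± 2.43 and 9.47 ± 4.05 CPM. Slc4a9 changed by −1.10, −0.50 and −0.40, and with 75th percentile scaling it was no longer called in rhabdomyolysis (−0.32) or cisplatin (−0.31). Its cisplatin call was also lost without control 8, cisplatin mouse 1 or cisplatin mouse 4 (limma adjusted p up to 0.0897). The sodium-driven anion exchanger gene Slc4a8 rose in rhabdomyolysis (1.04) and cisplatin (0.73), with 0.28 in IRI (limma adjusted p = 0.108), where it became a call with 75th percentile scaling (0.40, limma adjusted p = 0.0439), with all 8 controls (0.38, limma adjusted p = 0.0171) and without control 4 (0.42, limma adjusted p = 0.0193) or IRI mouse 1 (0.41, limma adjusted p = 0.0286). The nucleotide sugar receptor gene P2ry14 also rose in rhabdomyolysis (0.71) and cisplatin (1.05), with −0.035 in IRI (limma adjusted p = 0.873). Of the 6 type B genes, 0 were called between rhabdomyolysis and cisplatin by limma, 0 had an unadjusted limma p under 0.05 and 0 were called by edgeR, while DESeq2 called 1, Slc4a8.

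**Figure D4:**
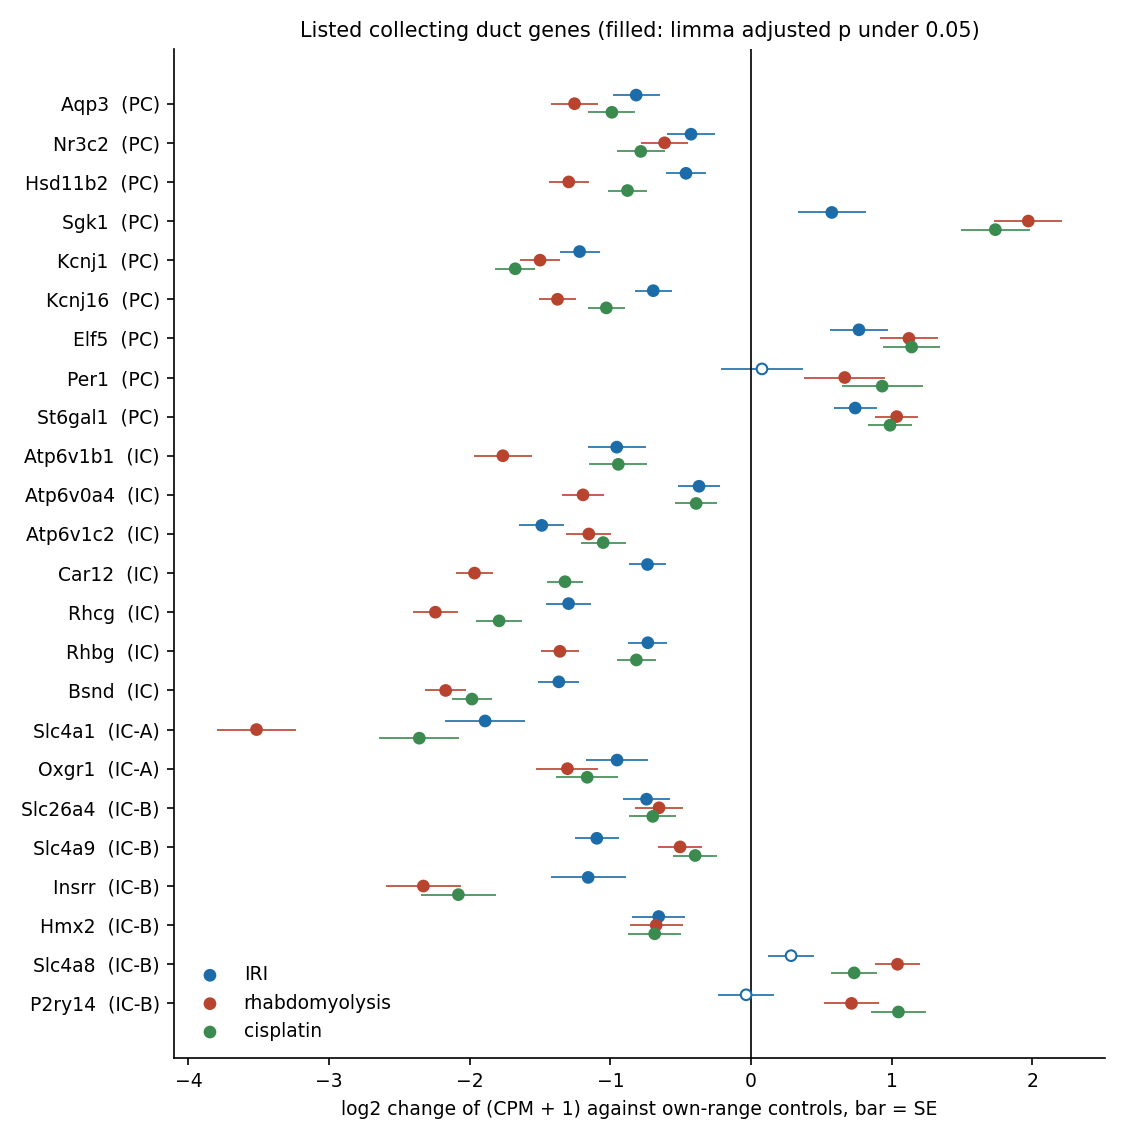
Log2 change of (CPM + 1) against own-range controls for listed collecting duct genes of the table, with bars of 1 SE; PC is principal cell, IC both intercalated types, IC-A type A, IC-B type B, and filled points have a limma adjusted p under 0.05. All IC and IC-A points shown lie below 0 (with quantile normalization Atp6v0a4 turns to 0.17 in IRI and 0.025 in cisplatin), whereas Sgk1, Elf5 and St6gal1 lie above it in each injury.

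Since red cells transcribe Slc4a1 while they mature, a list of red cell genes was read beside it. Of 26 listed genes, 8 were in the table and counted (Hbb-b2 held the values of Hbb-bt in all 20 libraries and was counted once with it). Of the 8, 4 fell in IRI, 7 in rhabdomyolysis and 8 in cisplatin, with median log2 changes of −0.69, −1.85 and −5.93, beside 40.1%, 46.5% and 44.0% of all genes tested called lower. The share in IRI was near that background. The IRI count was 2 without control 2, without control 3, without IRI mouse 1 or with a minimum mean of 5 CPM. It was 6 without control 1 or with the replicate number as a block. Summed over the 8 genes the level ranged from 1148 to 2908 CPM in controls, 1039 to 1661 in IRI, 386 to 495 in rhabdomyolysis and 8.94 to 23.1 in cisplatin. Across the injuries the red cell sum and Slc4a1 were in a different order. Cisplatin had the lowest red cell sum, and rhabdomyolysis the lowest Slc4a1, at 1.70 to 4.44 CPM beside 6.56 to 10.3 CPM in cisplatin. Between the 2 groups, 7 of the 8 red cell genes were higher in rhabdomyolysis and 1, the erythroid transcription factor gene Klf1, was lower (log2 −0.86, limma adjusted p = 5.85e-04), as Slc4a1 was, while 21.4% of all genes tested were called higher and 32.7% lower in that comparison. Klf1 averaged 4.06 ± 1.16 CPM in controls (SD, n = 8) and 1.25 ± 0.433, 0.172 ± 0.0865 and 1.13 ± 0.20 CPM in IRI, rhabdomyolysis and cisplatin (SD, n = 4 each), on 1 to 3 reads per library in rhabdomyolysis. Alas2, which starts heme synthesis in red cell precursors, had 0 to 2 reads per library in cisplatin and 36 to 61 in rhabdomyolysis. The part of red cell RNA in the Slc4a1 change was not tested.

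**Figure D5:**
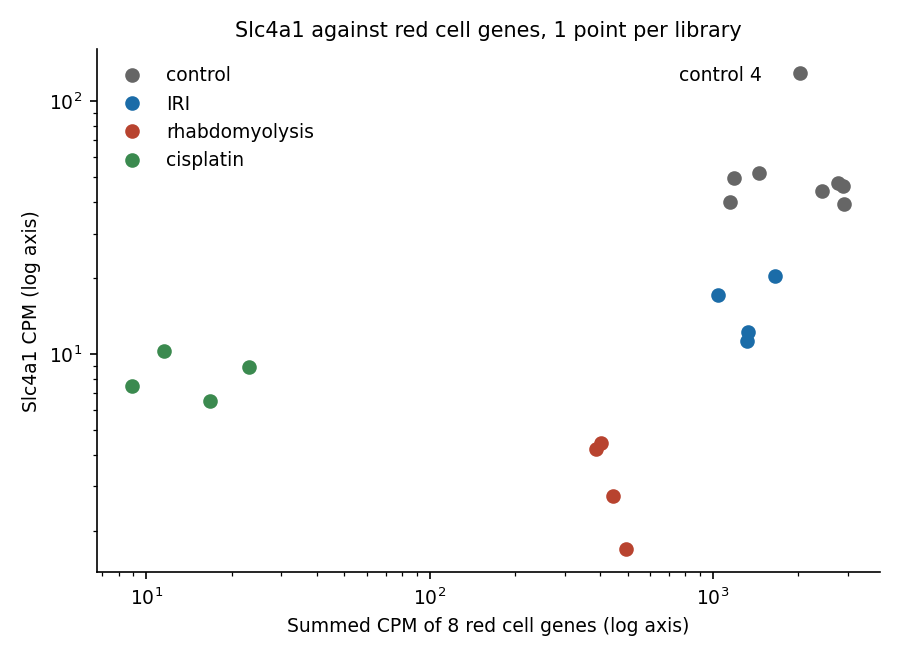
Slc4a1 CPM against the summed CPM of 8 red cell genes, both on log axes, 1 point per library. Cisplatin mice lie far left at 8.94 to 23.1 CPM of red cell genes, and rhabdomyolysis mice lie lowest for Slc4a1, at 1.70 to 4.44 CPM.

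Control 4 held 2027 CPM of red cell genes, within the range of the other controls, and was highest for 2 of the 8. Of the 5672 genes tested, 8, Slc4a1 included, had at least the ratio of control 4 to the highest other control that Slc4a1 had. Among the 3552 genes with a control mean of at least 10 CPM, Slc4a1 had the highest such ratio, and the next, Stra6, had 1.80. Control 4 was also the highest control for 7 of 9 distal convoluted and connecting tubule genes and 5 of 8 thick ascending limb genes, and the lowest for 9 of 12 proximal tubule genes, while 13.7% of all genes tested were highest and 22.1% lowest in it. It was the highest control for Oxgr1 (84.0 CPM), the only other gene in the table listed as type A. It was highest for 3 of the 7 other principal cell genes and 2 of the 8 listed as shared by intercalated types. The same held for 1 of the 5 other type B genes and 2 of the 4 hypertonic medulla genes. The part of these differences in its Slc4a1 value was not tested.

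The remaining lists describe what else the cortex held. Summed over 12 proximal tubule genes, the level ranged from 29349 to 52766 CPM in controls and from 4354 to 14902 CPM in injured mice. Over 8 thick ascending limb genes it ranged from 1969 to 3384 CPM in controls and from 264 to 569 CPM in injured mice, and over 9 distal convoluted and connecting tubule genes from 2016 to 3186 and from 562 to 1306 CPM. Endothelial genes rose for 3, 4 and 4 of 4 in IRI, rhabdomyolysis and cisplatin, podocyte genes for 3, 2 and 2 of 3, and myeloid genes for 5, 7 and 6 of 8, with 1 myeloid gene lower in each, beside 40.6%, 48.8% and 47.8% of all genes tested called higher. Over all alternatives and left-out libraries, the counts in IRI ranged from 1 to 4 for endothelium (1 without control 2), 2 to 3 for podocytes and 4 to 6 for myeloid genes. Their summed levels in controls and in injured mice were 174 to 360 and 341 to 857 CPM for endothelium, 177 to 484 and 488 to 952 CPM for podocytes, and 71.7 to 103 and 77.1 to 235 CPM for myeloid cells. Summed over 4 genes of the hypertonic medulla the level ranged from 91.3 to 191 CPM in controls. It was 139 to 228 CPM in IRI, 282 to 299 CPM in rhabdomyolysis and 138 to 253 CPM in cisplatin. Over 2 urothelial genes the level was 0 to 3.37 CPM in controls and 0.932 to 3.09 CPM in IRI. The urothelial sum was 7.37 to 31.5 CPM in rhabdomyolysis and 10.4 to 14.4 CPM in cisplatin. Among 8 genes of corticosteroid receptors and enzymes, 3, 5 and 5 rose and 3 fell in each injury. The share that fell was below the background of 40.1%, 46.5% and 44.0%, as was the share that rose in IRI, where 1 rose without control 4 or IRI mouse 4. Hsd11b1, which regenerates glucocorticoid, fell with Hsd11b2, from 108.5 ± 24.0 CPM in controls (SD, n = 8) to 53.9 ± 15.5, 77.7 ± 12.5 and 59.9 ± 17.0 CPM (SD, n = 4 each). Its rhabdomyolysis call (log2 −0.47) was lost with 75th percentile scaling (−0.28), quantile normalization (−0.19) and no mean-variance trend, and without control 5 or 7, rhabdomyolysis mouse 2, 3 or 4, cisplatin mouse 4 or IRI mouse 1 (limma adjusted p from 0.0502 to 0.424). H6pd, which supplies its cofactor, rose by 1.45, 0.81 and 1.08 on the log2 scale. The part of the other cell types in the collecting duct values was not tested.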

How the data were processed

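The authors deposited 1 table of CPM values for 6025 genes in 20 libraries. Per the labels' protocols, poly-A RNA from renal cortex was sequenced from stranded libraries as 150-bp pairs, with 20 M reads planned. FastQC, Bowtie2 2.1.0, RSEM 1.2.15, edgeR and the builds GRCm38 and mm10 are named in the submitters' processing notes, with no roles. Values were whole multiples of 1 step per library, so reads were recovered (largest distance from a whole read 5.35e-07 below 2000 reads). The main test used limma 3.58.1 (R 4.3.3) on log2(CPM + 1): 1 model of 5 groups (the controls of each identifier range and the 3 injuries), a mean-variance trend, a minimum mean of 1 CPM (5672 genes tested, 353 left out), Benjamini-Hochberg adjustment and a threshold of 0.05. Fold changes on this scale understate the change of low genes. Exact two-sided permutation tests compared 4 with 4 libraries. The fitting code was tested on simulated data. Alternatives, including edgeR 4.0.16 and DESeq2 1.42.0 on recovered reads, are given in the closing section. The named genes are the 4 genes, the listed genes and, per gene, the 3 most alike by each measure, less 2 genes whose results are not reported here. The members and lists were chosen with earlier results of these data known.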

Additional observations from a re-analysis of the deposited data

Results flagged for a closer look

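In a group of 4 to 8 mice, a value was singled out where its gap to the nearest other value was a large share of the group's whole range. This was the case for 7 of 44 groups of values, while chance gives about 1 in 20, or 2.2; several of the 7 share the same library and gene. Slc4a1 in control 4 (129 CPM) had a gap of 0.859 of the range, and Slc26a4 in cisplatin mouse 3 (75.5 CPM) a gap of 0.926. For the log2 ratio of Aqp3 to Slc4a1, control 4 (0.13) had a gap of 0.848 and rhabdomyolysis mouse 4 (5.87) a gap of 0.862. For Hsd11b2 to Slc4a1, control 4 (0.37) had a gap of 0.781. For Slc4a1 to Slc26a4, control 4 (0.12) had a gap of 0.648 and rhabdomyolysis mouse 4 (−5.55) a gap of 0.940.

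The injuries differed by limma for 2 of the genes. In rhabdomyolysis against cisplatin the log2 difference was −0.42 for Hsd11b2 and −1.16 for Slc4a1. The IRI and rhabdomyolysis effects differed by 0.83 for Hsd11b2 and by 1.63 for Slc4a1, with the smaller fall in IRI for both.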

How the results depend on the processing

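For the 4 genes, 241 of the 248 values under settings other than leaving out a library kept their direction and their side of the threshold, as did 465 of 480 with 1 library left out. The exceptions were these. For Hsd11b2 in rhabdomyolysis against cisplatin, the log2 difference was −0.32 with 75th percentile scaling, −0.29 with quantile normalization and −0.32 with DESeq2, none of them a call. Quantile normalization gave −0.16 for Hsd11b2 in IRI, also not a call, and 3 principal cell genes lower in IRI in place of 5. With all 8 controls as 1 group, the Slc4a1 difference between the IRI and cisplatin effects was 0.79, a call (limma adjusted p = 0.0267), and 2636 genes were called there in place of 1716. The Slc26a4 difference between those effects turned to 0.024 with quantile normalization and 0.015 with all 8 controls. With a minimum mean of 5 CPM, 2 red cell genes were lower in IRI in place of 4. The cause was not tested.

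With each library left out in turn, rhabdomyolysis against cisplatin ranged from −0.44 to −0.10 for Aqp3, −0.53 to −0.34 for Hsd11b2 and −0.074 to 0.25 for Slc26a4. IRI effect against rhabdomyolysis effect ranged from 0.28 to 0.62 for Aqp3 and −0.29 to 0.030 for Slc26a4. IRI effect against cisplatin effect ranged from 0.30 to 0.56 for Hsd11b2, 0.29 to 0.85 for Slc4a1 and −0.12 to 0.062 for Slc26a4. Red cell genes lower in IRI ranged from 2 to 6.

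Same-numbered deviations correlated from −0.112 to 0.176 in IRI and controls 1 to 4, and from −0.207 to 0.325 in rhabdomyolysis and cisplatin. The same number was the most alike for IRI mouse 1 (0.0649, highest other 0.000332) and rhabdomyolysis mouse 4 (0.325, highest other 0.0270). For every other number, a differently numbered mouse correlated more. Such correlations cannot show whether the replicate numbers in the titles pair the mice. With the number as a block, the log2 changes were the same and no call of the 4 genes changed (limma adjusted p for Hsd11b2 0.0102 in IRI against control and 0.0153 in rhabdomyolysis against cisplatin). The block called 4377 genes in IRI against control and 2865 in rhabdomyolysis against cisplatin. In rhabdomyolysis, Slc4a1 rested on 15 to 47 reads per library, which limits its precision, and reads were not tagged by molecule.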
